A study of Mus musculus with 10 samples.

Results

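The genes of the T cell receptor (TCR) complex and of the first signalling steps below it were followed in mouse CD8+ T cells that had been cultured with 4T1 breast tumour cells, with or without sodium acetate (NaAc). The set was chosen by name and holds 10 of the 57825 genes in the expression table: the CD3 chains Cd3d, Cd3e, Cd3g and Cd247, the CD8 coreceptor chains Cd8a and Cd8b1, the kinases Lck and Zap70, and the adaptors Lat and Lcp2. Each name matched 1 gene.

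The T cells came from spleens of female Balb/c mice. They were activated for 12 h on anti-CD3 with anti-CD28 and IL-2, kept for 24 h with or without 5 mM NaAc, and then cultured for 48 h with 4T1 cells, a mammary carcinoma line of the same mouse strain. All samples, those without NaAc included, had therefore received the activating antibodies, IL-2 and the tumour cells, and the labels place them at day 3. The group without NaAc (CD8+4T1) and the group with NaAc (CD8+4T1+NaAc) held 5 samples each. No sample in the comparison lacked tumour cells. The labels do not say whether the samples of a group came from separate animals or cultures, so the p-values measure the spread between these samples, which may be technical.

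In background, the alpha and beta chains of the TCR bind peptide on MHC class I but have no signalling tail. The signal passes through the CD3 delta, epsilon, gamma and zeta chains, whose tails carry tyrosine motifs. Lck, which is held by the CD8 coreceptor, phosphorylates these motifs, ZAP-70 binds them, and ZAP-70 in turn phosphorylates the adaptors LAT and SLP-76 (the product of Lcp2), on which the enzymes of calcium, Ras and NF-kappaB signalling assemble.

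Levels are given as FPKM, fragments per kilobase of gene length and of library depth, so that genes of different lengths can be set side by side. Differences are given on the log2(FPKM + 0.1) scale, with NaAc minus no NaAc, and were tested with limma over the 15710 genes whose mean over all samples reached 0.5 FPKM. Genes with a p under 0.05 after Benjamini-Hochberg adjustment were called.

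The libraries held 16306447 to 17443395 fragments without NaAc and 16503701 to 18853726 with NaAc, and 95.5% to 97.9% against 89.8% to 92.1% of these lay in the genes listed. The library of NaAc replicate 1 had the fewest genes detected, 20233, where the remaining 4 of its group had 24681 to 25088. CD8+4T1 replicate 1 had 22291, where the rest of its group had 23786 to 24054. Values without these libraries are given below for the members in which they stood apart. Of all genes tested, 36.5% were called in either direction, 17.6% higher and 19.0% lower with NaAc. The 9 T cell and CD8 lineage markers were present in every library, with a summed level of 623 to 707 FPKM without and 560 to 663 FPKM with NaAc. Of these 9, Cd2, Cd5 and the members Cd3d, Cd3e and Cd3g were called lower and none higher. B cell, NK cell and gamma-delta T cell lists summed to less than 7 FPKM in every library. Of these lists only 2 of 5, 1 of 4 and 0 of 4 genes reached the level for testing, and none of the genes tested was called. Of the CD4 T cell and myeloid lists, Cd4 (0.541 against 1.60 FPKM) and Lyz2 (0.536 against 1.12 FPKM) were called higher with NaAc. The most abundant genes of these lists, Zbtb7b (13.5 against 12.4 FPKM) and Cd68 (25.8 against 22.8 FPKM), were not called. The CD4 list summed to 13.5 to 15.3 FPKM without and 11.7 to 17.9 FPKM with NaAc. For the myeloid list the sums were 23.0 to 29.8 and 23.0 to 26.1 FPKM. Of 12 genes of 4T1 cells and epithelium, 8 could be tested and 6 were higher with NaAc, and their summed level was 9.27 to 20.2 FPKM without and 76.7 to 199 FPKM with NaAc. None of the 12 was at 0 in all libraries. The part of these transcripts in the results below was not tested.

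The members did not move as a block. Of the 10 genes, 6 were lower and 1 was higher with NaAc, and 3 were not called. Cd3d, Cd3e, Cd3g, Lck, Lat and Lcp2 fell, by 19.7% to 31.0% on the FPKM scale as deposited, with smaller falls under another scaling of the libraries (given with the plot of the members' differences). Zap70 rose by 20.6%. Cd247, Cd8a and Cd8b1 did not pass the test. In each of the 6 genes that fell, all 5 NaAc samples lay under all 5 samples without NaAc, and 13.3% of all genes tested were lower with separate groups in the same way. In no member did all NaAc samples lie above, where 13.1% of all genes did. All members were well expressed, and a closer background was therefore that of the 4408 genes whose mean reached 12 FPKM, of which 38% were called lower and 12.3% higher. The median difference was -0.34 over the members, -0.13 over these 4408 genes and -0.02 over all genes tested. In bulk RNA, fewer cells of a type and less RNA per cell cannot be told apart.

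**Figure D1:**
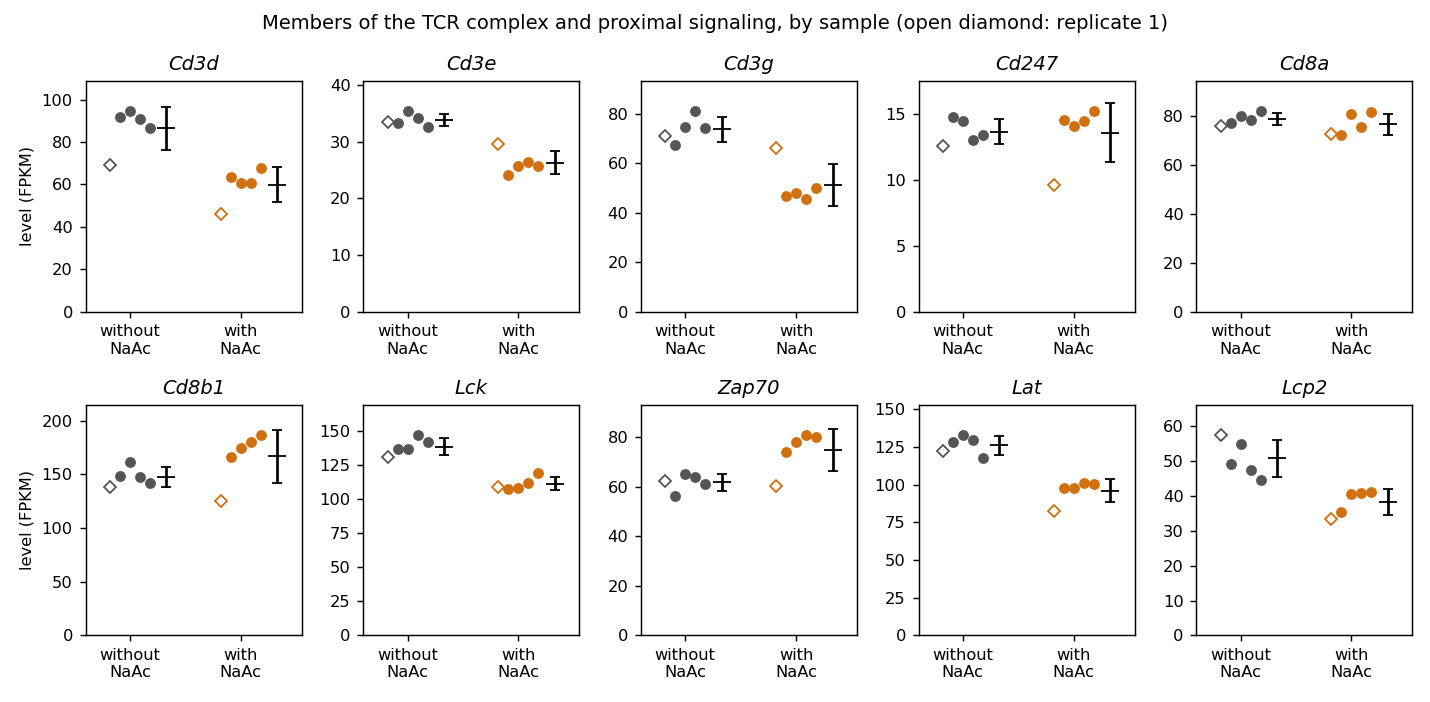
FPKM of the 10 TCR complex and proximal signalling genes in each sample, by group, with the mean and SD of 5 samples (bars) and replicate 1 as an open diamond; each panel has its own axis from 0. The groups are apart in Cd3d, Cd3g, Cd3e, Lck, Lat and Lcp2, and overlap in Cd247, Cd8a, Cd8b1 and Zap70.

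The CD3 delta, gamma and epsilon chains form the delta-epsilon and gamma-epsilon dimers that flank the TCR. The Cd3d level was 68.9, 91.9, 94.6, 90.6 and 86.5 FPKM in replicates 1 to 5 without NaAc and 46.0, 63.6, 60.8, 60.8 and 67.7 FPKM with NaAc. Replicate 1 was the lowest of both groups, and even the highest NaAc sample lay under the lowest sample without NaAc. The mean fell from 86.5 ± 10.2 FPKM to 59.8 ± 8.22 FPKM (SD, n = 5 each), a log2 difference of -0.54 (SE 0.11, limma adjusted p = 0.00405). It was -0.44 without NaAc replicate 1 and -0.61 without CD8+4T1 replicate 1.

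The Cd3g level was 70.9, 67.4, 74.6, 81.1 and 74.4 FPKM without NaAc and 66.1, 46.7, 48.1, 45.5 and 49.99 FPKM with NaAc. Here NaAc replicate 1 stood apart on the high side, close to the samples without NaAc, and the other 4 lay far below them. The mean fell from 73.7 ± 5.08 to 51.3 ± 8.44 FPKM (SD, n = 5 each), a log2 difference of -0.53 (SE 0.10, limma adjusted p = 0.00171). When NaAc replicate 1 was left out it was -0.63.

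The Cd3e level was 33.5, 33.2, 35.4, 34.2 and 32.6 FPKM without NaAc and 29.7, 24.1, 25.7, 26.4 and 25.7 FPKM with NaAc. Cd3e varied little between samples, and NaAc replicate 1 was again the highest of its group. The mean fell from 33.8 ± 1.07 to 26.3 ± 2.06 FPKM (SD, n = 5 each), a log2 difference of -0.36 (SE 0.06, limma adjusted p = 0.000608). With the same FPKM total it was -0.19.

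Summed over Cd3d, Cd3e and Cd3g, the level was 194 ± 13.1 FPKM without and 137 ± 4.81 FPKM with NaAc (SD, n = 5 each). NaAc replicate 1 did not stand out in this sum, since it was low in Cd3d and high in the other two. The 3 genes made up 22.4% to 24.7% of the summed level of the 10 members without NaAc and 17.98% to 22.3% with NaAc, so that these shares did not overlap. The highest NaAc share, 22.3%, was that of replicate 1, which stood apart from the 17.98% to 19.1% of the other 4 and lay close to the lowest share without NaAc. The sum of all 10 members was 811 ± 30.7 FPKM without and 714 ± 50.3 FPKM with NaAc.

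The genes Cd3g, Cd3d and Cd3e follow each other on chromosome 9 with no listed gene between them. In the coordinates of the expression table, whose genome build was not given in the sources used here, Cd3g (minus strand) lay at 44880870 to 44891729, Cd3d (plus strand) at 44893084 to 44898637 and Cd3e (minus strand) at 44910038 to 44920925. Cd3g and Cd3d are thus transcribed away from each other across a gap of 1355 bases. As the 3 neighbours fell together, the 250 bases before their start sites are shown (RefSeq, GRCm38.p6, 5′ to 3′ on the strand of the gene). Matches to GGAAGT, a core letter string of ETS factors, on either strand are in capitals. The windows are chr9:44981536-44981785 on the plus strand for Cd3d, chr9:44980432-44980681 on the minus strand for Cd3g and chr9:45009612-45009861 on the minus strand for Cd3e.
Cd3d: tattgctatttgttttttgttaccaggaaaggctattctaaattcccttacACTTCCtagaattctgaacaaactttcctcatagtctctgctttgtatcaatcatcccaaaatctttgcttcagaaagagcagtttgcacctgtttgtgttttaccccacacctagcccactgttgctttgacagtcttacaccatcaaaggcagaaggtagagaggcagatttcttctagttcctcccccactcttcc
Cd3g: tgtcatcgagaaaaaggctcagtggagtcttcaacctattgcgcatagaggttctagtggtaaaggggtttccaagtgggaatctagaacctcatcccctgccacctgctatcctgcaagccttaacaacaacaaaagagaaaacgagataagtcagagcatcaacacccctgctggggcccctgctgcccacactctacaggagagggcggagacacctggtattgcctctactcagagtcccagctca
Cd3e: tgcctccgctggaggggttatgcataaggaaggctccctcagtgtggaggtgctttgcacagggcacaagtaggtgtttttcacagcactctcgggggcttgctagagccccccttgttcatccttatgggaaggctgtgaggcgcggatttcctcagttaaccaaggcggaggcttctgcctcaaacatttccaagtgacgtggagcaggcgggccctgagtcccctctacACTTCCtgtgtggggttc

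The ETS string occurred once in the window of Cd3d, on the opposite strand and beginning 199 bases before the start site, and once in that of Cd3e, on the opposite strand 18 bases before it. It was not found in the window of Cd3g. Among all 32851 RefSeq promoter windows of this length, 19.7% held it. The strings TGTGGT (RUNX), CAGCTG (E-box) and TATAAA (the TATA box), also searched on both strands, were in none of the 3 windows, and 14.0%, 13.0% and 12.4% of all windows held them. A match of letters is a description and shows no binding. RefSeq windows were at hand for 9 of the 10 members, all but Cd8b1. The ETS string was also in the window of Cd247, in both Lck windows and in 1 of 3 Zap70 windows, the RUNX string in 1 Lck and 1 Zap70 window, and the E-box string in that of Lcp2.

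Cd247 encodes the zeta chain, which carries most of the tyrosine motifs of the complex and lies on chromosome 1, away from the other CD3 genes. Its level was 12.5, 14.8, 14.5, 13.0 and 13.4 FPKM without NaAc and 9.64, 14.6, 14.1, 14.4 and 15.2 FPKM with NaAc. NaAc replicate 1 was the lowest of all 10 samples, and the other 4 NaAc samples lay within or just above the range without NaAc. The means were 13.7 ± 0.948 and 13.6 ± 2.25 FPKM (SD, n = 5 each), a log2 difference of -0.02 with a 95% interval of -0.28 to 0.23 (limma adjusted p = 0.898). Without NaAc replicate 1 the difference was 0.10, and its sign also turned with the same FPKM total (0.15) and with scaling on leukocyte genes (0.07). The gene overlaps Pou2f1 on the opposite strand, which held up to 1295 fragments where Cd247 held as few as 878. The strand setting of the counting was not given in the sources used here, so reads of Cd247 and Pou2f1 may not have been told apart.

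Within a sample, the log2 ratio of Cd247 to Cd3e was -1.30 ± 0.10 without and -0.96 ± 0.37 with NaAc (SD, n = 5 each), a difference of 0.34 (exact permutation test, two-sided p = 0.0794, 0.119 adjusted over the 6 ratios computed). Without NaAc replicate 1 this difference was 0.50 (exact permutation, adjusted p = 0.0159). That replicate, at -1.61, was the only NaAc sample not above all samples without NaAc, so leaving it out made the groups separate. The ratio of Cd3g to Cd3e was lower by 0.17 with NaAc (adjusted p = 0.119 in the exact test) and by 0.22 without NaAc replicate 1 (adjusted p = 0.0238 in the exact test). The ratio of Cd3d to Cd3e was also lower by 0.17 (exact permutation, adjusted p = 0.352), with replicate 1 the lowest of both groups. This difference moved with single libraries, to -0.037 without NaAc replicate 1 (adjusted p = 0.867 in the exact test) and to -0.25 without CD8+4T1 replicate 1 (adjusted p = 0.167 in the exact test). It passed the test only without replicate 1 of both groups, at -0.11 (exact permutation, adjusted p = 0.0343).

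**Figure D2:**
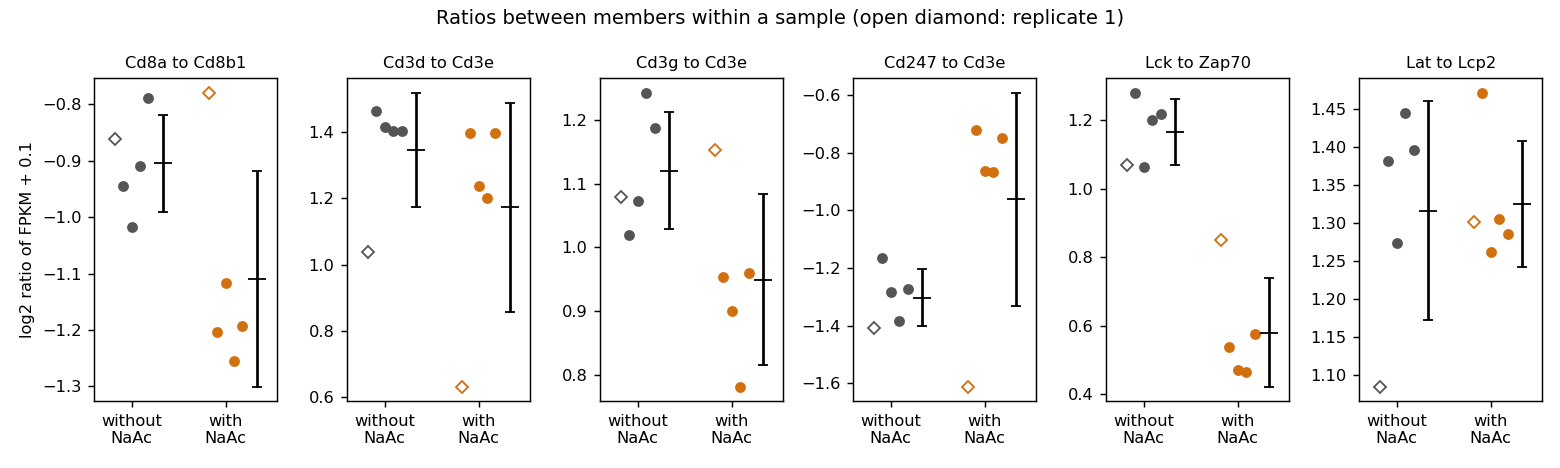
Log2 ratios of the FPKM of paired members in each sample, by group, with the mean and SD of 5 samples and replicate 1 as an open diamond. Only the ratio of Lck to Zap70 had separate groups, with linear means of 2.24 without and 1.49 with NaAc.

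CD8 alpha and beta form the coreceptor that binds MHC class I and brings Lck to the receptor. The Cd8a level was 76.0, 77.0, 79.8, 78.2 and 81.9 FPKM without NaAc and 72.7, 72.2, 80.6, 75.4 and 81.6 FPKM with NaAc. The groups lay across each other, with means of 78.6 ± 2.34 and 76.5 ± 4.37 FPKM (SD, n = 5 each). The log2 difference was -0.04 with a 95% interval of -0.15 to 0.07 (limma adjusted p = 0.559), so that a change past 0.15 in either direction lay outside the interval under this scaling.

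The Cd8b1 level was 138.1, 148.4, 161.6, 147.1 and 141.5 FPKM without NaAc and 124.9, 166.4, 174.8, 180.1 and 186.7 FPKM with NaAc. NaAc replicate 1 was the lowest of all 10 samples, whereas the other 4 NaAc samples lay above every sample without NaAc. With all samples, the means were 147 ± 9.001 and 167 ± 24.4 FPKM (SD, n = 5 each), a log2 difference of 0.17 with a 95% interval of -0.06 to 0.39 (limma adjusted p = 0.237). Without NaAc replicate 1, Cd8b1 was called higher, with a difference of 0.27 (limma adjusted p = 0.00312). It was also called higher in 5 other analyses, which are given in the closing section.

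Cd8b1 and Cd8a lie on chromosome 6, with 35933 bases and 4 listed genes between them. The log2 ratio of Cd8a to Cd8b1 was -0.90 ± 0.09 without and -1.11 ± 0.19 with NaAc (SD, n = 5 each), a difference of -0.21 (exact permutation, two-sided p = 0.0635, adjusted p = 0.119). Leaving out NaAc replicate 1 gave -0.29 (exact permutation, adjusted p = 0.0159). That replicate, at -0.78, was the only NaAc sample not below all samples without NaAc. Leaving it out thus made the groups separate, and this p is no independent support.

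Lck, the Src-family kinase that starts the cascade, was at 130.8, 136.6, 136.7, 147.4 and 142.3 FPKM without NaAc and 109.2, 107.9, 108.5, 111.9 and 119.6 FPKM with NaAc. The spread within each group was small, replicate 1 was the lowest without NaAc but lay among its group with NaAc, and the gap between the groups was clear. The mean fell from 139 ± 6.31 to 111 ± 4.81 FPKM (SD, n = 5 each), a log2 difference of -0.32 (SE 0.05, limma adjusted p = 0.000614). The difference was -0.14 with each library scaled to the same FPKM total (limma adjusted p = 0.0331) and -0.22 with scaling on leukocyte genes.

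Zap70, the kinase that docks on phosphorylated CD3 and zeta chains, was at 62.3, 56.2, 65.3, 64.1 and 61.1 FPKM without NaAc and 60.5, 74.3, 78.3, 81.1 and 80.2 FPKM with NaAc. NaAc replicate 1 lay inside the range without NaAc and the other 4 lay above it. The mean rose from 61.8 ± 3.53 to 74.9 ± 8.44 FPKM (SD, n = 5 each), a log2 difference of 0.27 (SE 0.08, limma adjusted p = 0.0242), and without NaAc replicate 1 the difference was 0.34. The call was lost when CD8+4T1 replicate 2 or NaAc replicate 3, 4 or 5 was left out, with limma adjusted p from 0.0566 to 0.0611.

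The kinases thus moved in opposite directions, and the linear ratio of Lck to Zap70 was 2.24 without and 1.49 with NaAc. The log2 ratio was 1.17 ± 0.10 and 0.58 ± 0.16 (SD, n = 5 each), with no overlap between the groups. The difference of -0.59 had a two-sided p of 0.00794 in the exact permutation test, the smallest that 5 against 5 samples can give, and 0.0476 after adjustment over the 6 ratios. Without CD8+4T1 replicate 2, 4 or 5 the difference was -0.56, -0.58 and -0.57, with an adjusted p of 0.0952 in the exact test. Since both genes were read in the same libraries, a factor that scales a whole library leaves this ratio unchanged.

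LAT is the membrane adaptor that ZAP-70 phosphorylates. The Lat level was 122.1, 128.1, 133.0, 129.3 and 117.6 FPKM without NaAc and 82.3, 97.9, 97.5, 101.3 and 100.1 FPKM with NaAc. NaAc replicate 1 was the lowest, and the other 4 lay close together, also below all samples without NaAc. The mean fell from 126.0 ± 6.11 to 95.8 ± 7.69 FPKM (SD, n = 5 each), a log2 difference of -0.40 (SE 0.06, limma adjusted p = 0.000793). It was -0.34 without NaAc replicate 1 and -0.22 with the same FPKM total.

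Lcp2 encodes SLP-76, the cytosolic scaffold that binds LAT through the GADS adaptor. Its level was 57.5, 49.1, 54.9, 47.4 and 44.6 FPKM without NaAc and 33.4, 35.2, 40.6, 40.9 and 41.0 FPKM with NaAc. The groups did not overlap, but the nearest samples, 44.6 and 41.0 FPKM, were close. The mean fell from 50.7 ± 5.34 to 38.2 ± 3.64 FPKM (SD, n = 5 each), a log2 difference of -0.41 (SE 0.09, limma adjusted p = 0.00393). With each library scaled to the same FPKM total, Lcp2 was at -0.23 and no longer called (limma adjusted p = 0.0725). Lat and Lcp2 fell by similar amounts, and the log2 ratio of Lat to Lcp2 was 1.32 ± 0.14 without and 1.33 ± 0.08 with NaAc (SD, n = 5 each; difference 0.01, exact permutation p = 0.929).

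**Figure D3:**
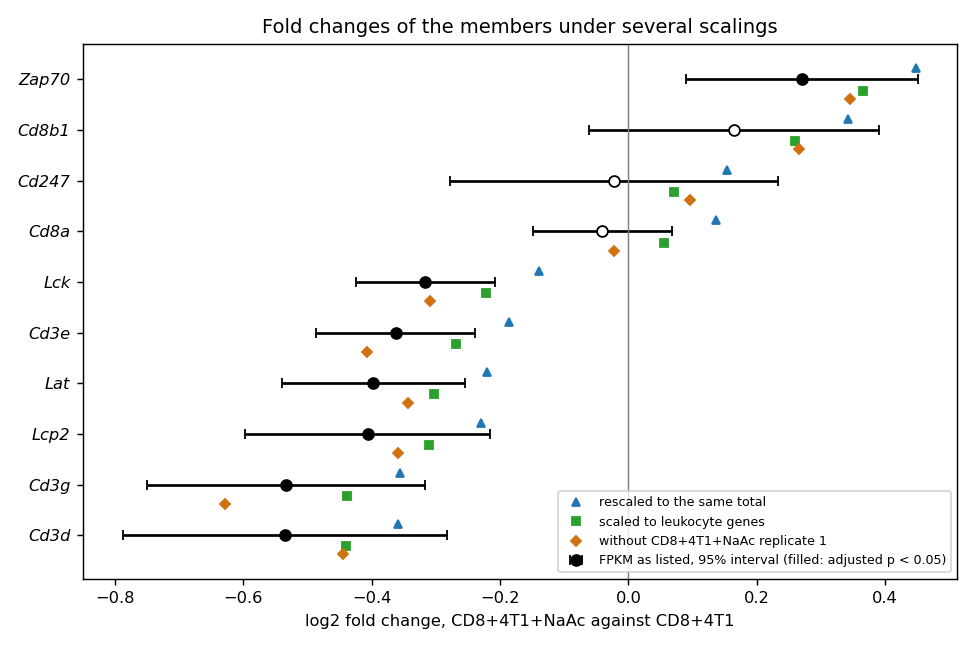
Log2 differences of the 10 members, NaAc minus no NaAc, with 95% intervals from limma and the values under 3 other analyses (the same total in each library, scaling on leukocyte genes, and without NaAc replicate 1). Filled circles (FPKM as deposited) passed an adjusted p under 0.05 and open circles did not. The markers of the 3 other analyses are solid whether called or not. Cd3d, Cd3e, Cd3g, Lck, Lat and Lcp2 lay below 0 in all analyses drawn, and Zap70 and Cd8b1 above 0, though Lcp2 and Cd8b1 were not called in all of them.

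The scaling of the libraries bears on how many members rose. Bringing each library to the same FPKM total moved the median of all genes tested from -0.02 to 0.16. On that scale 8 members were called, of which Zap70, Cd8b1 (0.34, limma adjusted p = 0.0143) and Cd8a (0.14, limma adjusted p = 0.0474) were higher and 5 were lower. The value of Cd8a was therefore near the shift of all genes. Cd3d, Cd3e, Cd3g, Lck and Lat were called lower in all 23 other analyses run, but with smaller differences under the same FPKM total. There Cd3d and Cd3g were at -0.36 each, Lat at -0.22, Cd3e at -0.19 (limma adjusted p = 0.0400) and Lck at -0.14, and Zap70 was at 0.45. With scaling on leukocyte genes, which put the median of all genes at 0.08, these values were -0.44, -0.44, -0.30, -0.27, -0.22 and 0.37. The leukocyte genes were Ptprc, Cd2, Cd5, Il2rg, Coro1a, Lcp1 and Rac2. Cd2 and Cd5 were themselves called lower with NaAc, and Ptprc and Cd5 are in the wider list below. This scaling is therefore not an independent reference.

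The order of the levels also differed between the groups. In both, Cd8b1, Lck and Lat had the highest and Lcp2, Cd3e and Cd247 the lowest mean FPKM. Without NaAc the order between them was Cd3d, Cd8a, Cd3g and Zap70, and with NaAc it was Cd8a, Zap70, Cd3d and Cd3g. Zap70 was above Cd3d in 0 of 5 samples without and in 5 of 5 samples with NaAc, above Cd3g in 0 and in 4, and Cd8a was above Cd3d in 1 and in 5. Neighbours whose ranges over the samples overlapped were Cd8b1 and Lck, Lck and Lat, Cd3d and Cd8a, Cd8a and Cd3g, and Zap70 and Lcp2 without NaAc. With NaAc they were Cd8a and Zap70, Zap70 and Cd3d, and Cd3d and Cd3g. Of these pairs, Lck was above Lat and Zap70 above Lcp2 within each of the 5 samples without NaAc, and Zap70 above Cd3d within each of the 5 with NaAc, whereas the order of the other pairs differed between samples.

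A wider list of 56 genes that work with the members was set beside them, of which 50 were tested. NaAc raised 10 and lowered 12 of these, 44% in all against 36.5% of all genes, with a median difference of -0.0048. With the same FPKM total in each library, the counts were 20 higher and 3 lower, and all genes tested moved in the same way, to 31.2% higher and 8.8% lower. The direction of the list as a whole thus depended on the scaling. Without NaAc replicate 1, 17 genes of the list were higher and 13 lower, of 51 tested. Among all genes tested, 21.6% were then higher and 22.7% lower. With all samples, raising the filter from 0.5 to 5 FPKM left 7800 genes, of which 47.9% were called. Of the list, 42 genes passed that filter, and 21 of them were called. With protein-coding genes alone, 24 of 47 genes of the list were called, beside 46.7% of all. In the share called, the list was thus close to these backgrounds. The genes named next are those with the largest called differences in either direction, or the members of a group with few calls.

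The constant segments of the TCR chains themselves did not pass the test. Trac, the alpha constant gene, was at 81.4, 68.9, 84.7, 78.9 and 74.3 FPKM without NaAc and 63.7, 95.3, 99.7, 101.9 and 110.6 FPKM with NaAc, a log2 difference of 0.26 (SE 0.13, limma adjusted p = 0.156). NaAc replicate 1 was the lowest of all samples and the other 4 lay above the whole group without NaAc. Without it, Trac was called higher by 0.39 (limma adjusted p = 0.000981), as it was with the same FPKM total, with leukocyte-gene scaling and with voom. The beta constant genes Trbc1 and Trbc2 had means of 206 ± 18.6 and 300 ± 25.2 FPKM without NaAc and 189 ± 39.5 and 289 ± 64.6 FPKM with NaAc (SD, n = 5 each). Their differences of -0.15 and -0.08 had limma adjusted p of 0.485 and 0.718, with 0 of the 3 constant genes at an unadjusted p under 0.05. Trbc1 and Trbc2 are near-identical copies, so that reads may be split between them.

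Among 5 other kinases of the pathway, Txk, a Tec-family kinase, was higher (4.95 ± 0.192 against 7.36 ± 0.626 FPKM; log2 difference 0.56, limma adjusted p = 0.00014). Tec was lower by 0.20 (limma adjusted p = 0.0260), a call that was lost with the same FPKM total, leukocyte-gene scaling, voom and no filter and in 5 of the 10 analyses without 1 library. Fyn and Csk were not called. Of 8 phosphatases, 50% were called, against 36.5% of all genes tested and 47.9% of those that passed the 5 FPKM filter. Ptpn6 (SHP-1), Ptpn2 and Ptpn22 were lower and Ubash3b (Sts-1) was higher. Ptpn6 ranged from 121 to 130 FPKM without and from 91.3 to 97.3 FPKM with NaAc, with a difference of -0.40 (limma adjusted p = 5.9e-05). With the same FPKM total Ptpn6 was at -0.22 and still called (limma adjusted p = 0.0021). Ptpn2 was at -0.34, Ptpn22 at -0.22 and Ubash3b at 0.43, and with the same FPKM total Ptpn2 and Ptpn22 were no longer called. Ptpn22 also lost its call with leukocyte-gene scaling (-0.12) and with voom (-0.13). Ptprc (CD45), the phosphatase that primes Lck, was not called, with a difference of 0.07 and a 95% interval of -0.11 to 0.24.

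Among 21 activating adaptors and effectors, 6 were higher and 7 lower, 61.9% in all. The shares to set beside this were 36.5% of all genes tested and 47.9% of those that passed the 5 FPKM filter. Bcl10, an adaptor on the path to NF-kappaB, ranged from 18.6 to 20.8 FPKM without and from 13.7 to 15.9 FPKM with NaAc, a log2 difference of -0.43 (limma adjusted p = 0.000161). With the same FPKM total Bcl10 was at -0.26 and still called (limma adjusted p = 0.00219). Tespa1, a TCR signalling protein of thymocytes and T cells, was higher by 0.999 (2.39 ± 0.169 against 4.93 ± 0.891 FPKM). Shb, an SH2 adaptor, was higher by 2.00, though at a low level of 0.340 to 1.12 FPKM without and 2.24 to 4.24 FPKM with NaAc, which rested on 19 to 240 fragments. With a pseudocount of 1 FPKM in place of 0.1 its difference was 1.27.

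Grap2 and Grb2, adaptors that link LAT to its partners, were also lower. Grap2 (GADS), which joins SLP-76 to LAT, was at 41.7 to 44.4 FPKM without NaAc. With NaAc it was at 41.2 FPKM in replicate 1 and at 26.3 to 28.8 FPKM in the others, a difference of -0.52 (limma adjusted p = 0.00320), or -0.63 without NaAc replicate 1. With the same FPKM total Grap2 was at -0.34 and still called (limma adjusted p = 0.0330). Grb2 was at 84.7 to 97.4 FPKM without NaAc and at 102 FPKM in NaAc replicate 1, but at 56.2 to 62.4 FPKM in the others, a difference of -0.44 (limma adjusted p = 0.0305). When NaAc replicate 1 was left out, Grb2 was at -0.60 and still called, whereas it was called in 2 of the 10 analyses that left out 1 library. The call was also lost with the same FPKM total (-0.27), with leukocyte-gene scaling (-0.35), with voom and with no filter, at limma adjusted p from 0.0574 to 0.187. Of 13 inhibitory adaptors and enzymes, 23.1% were called, beside 36.5% of all genes tested and 47.9% of those that passed the 5 FPKM filter. Sla2 (0.59) and the diacylglycerol kinase gene Dgkz (0.28, or 0.46 with the same FPKM total) were higher. Cd5 (-0.27, not called with the same FPKM total) was lower. Sla2 overlaps Rab5if on the opposite strand, which held up to 1812 fragments where Sla2 held as few as 190, and its value is uncertain for the same reason as that of Cd247.

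**Figure D4:**
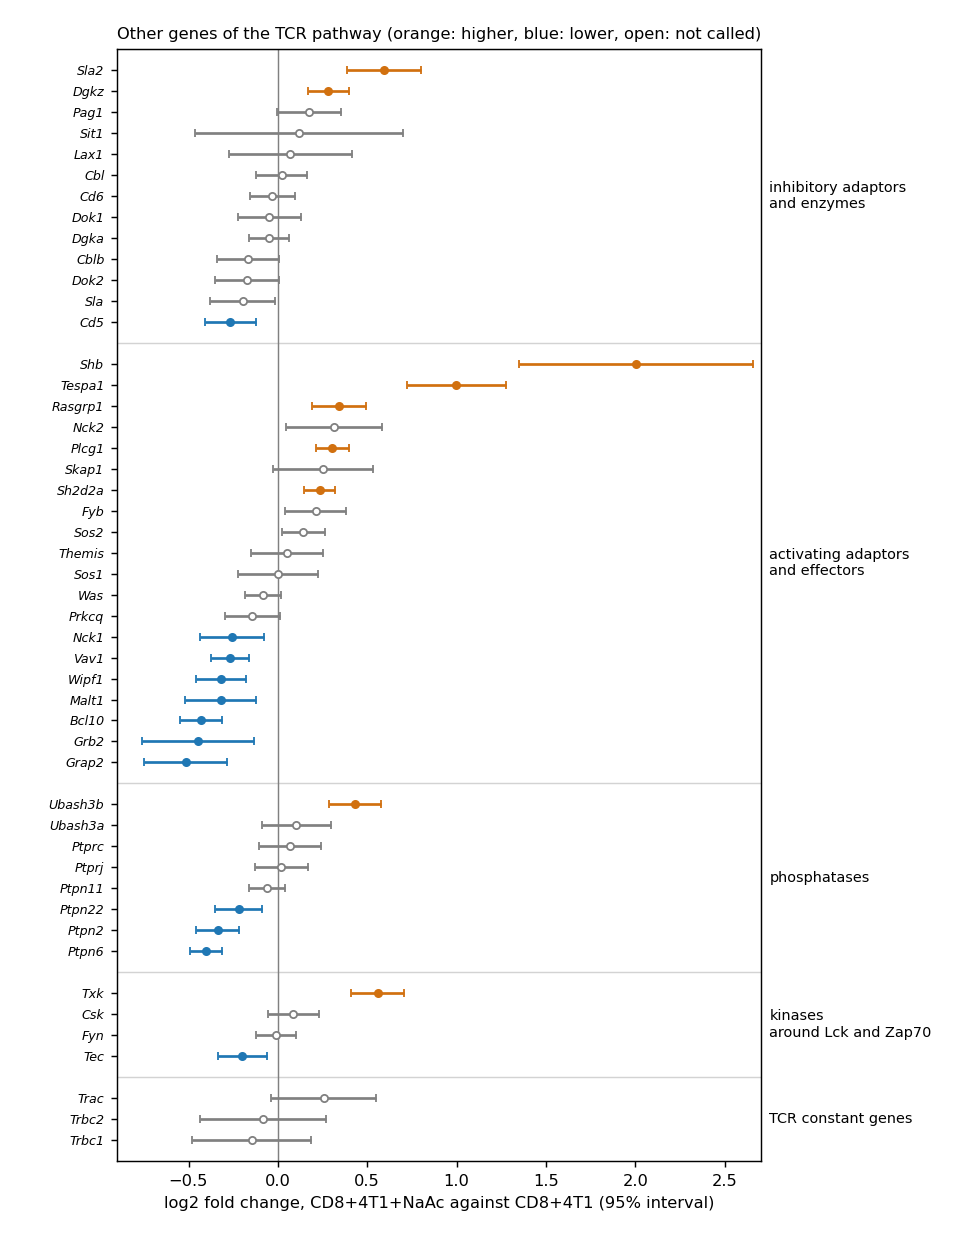
Log2 differences, NaAc minus no NaAc, with 95% intervals from limma, of 48 tested genes of the wider TCR pathway list, by group; filled points passed a limma adjusted p under 0.05 (orange higher, blue lower) and open points did not. Of the genes drawn, 9 were higher and 12 lower. Not all of the 50 tested genes are drawn, and among those 50, 10 were higher and 12 lower.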

How the data were processed

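Bulk RNA was sequenced from 10 samples, 5 per group. Per the labels and methods, the authors made NEBNext Ultra libraries, and fastp, HISAT2 2.0.5, StringTie 1.3.3b and featureCounts 1.5.0-p3 are named in the submitters' processing notes. The deposited values are FPKM per gene, and the genome build and strand setting were not given in the sources used here. Multiplied by gene length and by a depth inferred for each library from the smallest such product, 100% of the FPKM values above 0 came within 0.1 of a whole number of fragments, which gave the depth behind each value (878 to 7114 fragments per member and sample). Members share the FPKM scale of their library, so a few abundant transcripts can move all of them.

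Genes whose mean reached 0.5 FPKM were tested with limma 3.58.1 (R 4.3.3, variance trend, robust moderation) on log2(FPKM + 0.1), with Benjamini-Hochberg adjustment over all 15710 genes. The added 0.1 FPKM understates changes of low genes. The study's methods name a count test. It was not used because the deposited values are FPKM, and voom on recovered fragments was an alternative. The 6 within-sample ratios were tested by exact permutation over samples, two-sided, with Benjamini-Hochberg adjustment. Intervals are at 95%. Alternatives were the pseudocount, the filter, the scaling, the variance model, the replicate block, voom, protein-coding genes alone, the threshold and leaving out samples.

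Every member was named. Of the wider list, the called genes that rose most (4, of which 1 is not reported here) and fell most (4) were named, with the 5 genes whose pattern was most like that of the members. TCR constant genes and genes named for a count of 5 or fewer were chosen after their values were seen. The members and lists were chosen with earlier results of these data known. Of 57 names in the wider list, 1 was an older symbol of another and had no row. Tcrg-C1, Tcrg-C2 and Tcrg-C4 were matched by gene ID. Motifs were searched in RefSeq promoter windows of GRCm38.p6.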

Additional observations from a re-analysis of the deposited data

Results flagged for a closer look

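In 38 sets of 5 values, the 10 members, 6 ratios and 3 summed levels or shares in both groups, 1 sample stood apart from the other 4 in 12 sets, with a gap to its nearest neighbour above 0.71 of the range of its group. By chance about 1 in 20 such sets, or 1.9 of 38, would be set apart. Replicate 1 of a group was that sample in 11 of the 12, and the members within a library are not independent of each other. NaAc replicate 1 was the lowest of its group in Cd247 (gap 0.829 of the range), Lat (0.818), Cd3d (0.721) and Cd8b1 (0.714), and the highest in Cd3g (0.747). CD8+4T1 replicate 1 was the lowest of its group in Cd3d (0.718). Of the ratios, NaAc replicate 1 was lowest in Cd247 to Cd3e (0.837) and in Cd3d to Cd3e (0.742) and highest in Lck to Zap70 (0.713). It was also highest in the share of Cd3d, Cd3e and Cd3g in the summed members (0.737). CD8+4T1 replicate 1 was lowest in Cd3d to Cd3e (0.854), and NaAc replicate 2 was highest in Lat to Lcp2 (0.791). The same NaAc library listed the fewest genes above 0 FPKM, and the part of this in its values was not tested.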

How the results depend on the processing

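The number of members called was 6 to 8 of 10 in every analysis, and Cd3d, Cd3e, Cd3g, Lck and Lat were called lower in all of them. Of all genes tested, 17% (no filter) to 48.3% (sample weights) were called in these analyses. With the same FPKM total, the share of called members that were higher went from 14.3% to 37.5%, that of the wider list from 45.5% to 87.0% and that of all called genes from 48.1% to 78.01%. Cd247 was at 0.15, Cd8a at 0.14, Trbc1 at 0.030, Trbc2 at 0.094 and Cd8b1 at 0.34 on that scale. Scaling on leukocyte genes gave Cd247 0.072, Cd8a 0.055, Trbc2 0.012 and Cd8b1 0.26, sample weights gave Cd247 0.039, Trbc2 0.031 and Cd8b1 0.22, and voom gave Cd247 0.068, Cd8a 0.050, Trbc2 0.0079 and Cd8b1 0.26. Without replicate 1 of both groups, Cd247 was at 0.066, Trbc2 at 0.056 and Cd8b1 at 0.24, and the ratios were -0.28 (Cd8a to Cd8b1), -0.11 (Cd3d to Cd3e), -0.23 (Cd3g to Cd3e), 0.48 (Cd247 to Cd3e) and -0.043 (Lat to Lcp2). The cause of these shifts was not tested. Leaving out 1 sample gave -0.068 to 0.096 for Cd247, -0.20 to 0.011 for Trbc1, -0.15 to 0.085 for Trbc2, -0.65 to -0.56 for Lck to Zap70, -0.049 to 0.041 for Lat to Lcp2, -0.29 to -0.17 for Cd8a to Cd8b1, -0.25 to -0.037 for Cd3d to Cd3e, -0.22 to -0.13 for Cd3g to Cd3e and 0.28 to 0.50 for Cd247 to Cd3e, and 19 to 30 calls in the wider list. In the analyses without 1 sample, 31.4% to 44.3% of all genes tested were called. The highest share and the 30 calls in the wider list both came without NaAc replicate 1. A replicate block gave 7 called members (6 lower and 1 higher) and 23 called genes of the wider list, with 34.4% of all genes tested called. Samples with the same number did not deviate together (r of -0.03 to 0.07, and 2 of 5 samples correlated best with their own number), so the numbers are not taken as pairs. Depth did not limit the members, which had 878 fragments or more in each sample, whereas Shb rested on as few as 19.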

Other observations

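Among 7043 protein-coding genes that averaged 5 FPKM or more and are no members, the 5 whose log2 levels over the 10 samples followed the mean profile of the members most closely were Fermt3 (Pearson r 0.986), Slfn2 (0.972), Anxa2 (0.970), Thyn1 (0.966) and Msrb1 (0.966). After the group means were taken off, r was 0.959, 0.908, 0.888, 0.921 and 0.871. These values describe likeness over 10 samples in 2 groups of shared libraries and carry no test. The mean profile was 0.052 to 0.18 in the samples without NaAc and -0.26 to -0.012 in those with NaAc. NaAc replicate 1 had the lowest value. Lower levels with NaAc in genes chosen by likeness to this profile therefore follow from the choice and are no separate result. The mean levels without and with NaAc were 43.3 and 36.5 FPKM for Fermt3, 87.4 and 53.9 FPKM for Slfn2, and 194 and 136 FPKM for Anxa2. They were 34.8 and 25.8 FPKM for Thyn1, and 54.1 and 40.4 FPKM for Msrb1.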
